A study of Mus musculus with 6 samples.

Results

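The genes described here are 10 genes of oxygen sensing and of the response to hypoxia inducible factor (HIF), taken from an expression table with 78317 gene rows by an exact match of the gene symbol. They are the HIF alpha subunit genes Hif1a and Epas1, the regulators Vhl, Egln1 and Egln3, and the response genes Hilpda, Bnip3, Bnip3l, Ankrd37 and Ndrg1. Each symbol stood on 1 row, and all 10 had enough counts to be tested. Messenger RNA was sequenced from MCEC, an immortalised cell line from mouse cardiac endothelium. One group of 3 libraries was labelled ShFat4, a short hairpin RNA knockdown of the atypical cadherin gene Fat4. The other group of 3 libraries was labelled wild type and is called control below. The sources used here do not say whether control cells received any hairpin, how many hairpins or clones were used, at what oxygen level the cells grew, or whether libraries of a group are separate cultures. The p-values therefore reflect only how these libraries varied, and that variation may be technical.

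HIF is a transcription factor made of an oxygen-regulated alpha subunit and the stable partner ARNT. When oxygen is present, EGLN enzymes hydroxylate prolines of the alpha subunit, VHL binds the hydroxylated form, and the subunit is degraded. When oxygen is short the subunit persists, enters the nucleus and activates genes for glucose use, vessel growth, mitochondrial turnover and lipid storage. Much of this control acts on the protein, which RNA sequencing does not measure.

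Library totals ran from 10509069 to 11538010 counts in knockdown and from 10305810 to 11870091 in control libraries. Fat4 was scarce, with 8.5, 10 and 9 counts in knockdown libraries and 10, 22 and 31.5 in control libraries (log2 fold change -1.17, SE 0.35, edgeR adjusted p = 0.033, range over the alternatives 0.00213 to 0.205). Its groups overlapped at control replicate 1, and the call was lost without any 1 of the other 5 libraries. The call was also lost by limma-voom and after correction for GC content and length, and DESeq2 gave Fat4 no adjusted p. Control replicate 1 also lay farthest from its group mates, with a root mean square log2 distance of 0.27, against 0.21 to 0.24 for the other 5 libraries. Defining markers of the labelled endothelial cell type were scarce. Of 12 endothelial markers, 10 were under 1 CPM (counts over the library total after TMM scaling, a trimmed-mean correction, times 1000000) in both groups, and Tie1, Vwf, Erg, Cldn5, Emcn and Robo4 had no count, which allows 0.253 to 0.291 CPM (3 counts, counting error only). Summed expression of 10 mesothelial markers was 1640 to 1694 CPM in knockdown and 1876 to 1983 CPM in control libraries. Of these 10 markers 5 were called lower, against 8.44% of all tested genes. Upk1b, the most abundant, averaged 667 CPM in both groups, and Upk3b averaged 420 CPM in knockdown and 563 CPM in control libraries. Krt8 (log2 fold change 0.58) and Krt18 (0.17), both scarce, did not pass and had the opposite sign. Summed expression of 8 fibroblast markers was 1546 to 1685 CPM in knockdown and 1996 to 2086 CPM in control libraries, a sum that Col1a1 dominated (1466 to 1604 CPM in knockdown, 1922 to 2016 CPM in control libraries). Col1a1 was the 1 of 4 tested fibroblast markers called lower, and Dcn (log2 fold change 0.18) and Col1a2 (0.58), which did not pass, had the opposite sign. Ribosomal protein genes took 14.0% ± 0.379 of counts in knockdown and 12.2% ± 0.639 in control libraries (SD, n = 3 each, exact two-sided permutation of libraries, p = 0.1, which is as low as 3 against 3 can give). The part of these shifts in the results below was not tested, and in bulk samples fewer cells of a type cannot be told apart from less RNA per cell.

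HIF binds DNA at a short core, ACGTG or GCGTG, in hypoxia response elements. The sequences below lie before the start sites of called genes that have an entry in the RefSeq promoter table (GRCm38.p6), and capitals mark each core on either strand. Bnip3 (chr7:138909507-138909756, minus strand) and Egln1 (chr8:124949255-124949504, minus strand) are shown over the 250 bases before the start. Hilpda has 2 annotated starts. The 250 bases before the upstream start ended at chr6:29272487 and held no core. Those before the downstream start held 3, all of which lie after the upstream start. Each is shown in a stretch of 30 bases (plus strand, chr6:29272503-29272532, chr6:29272571-29272600 and chr6:29272596-29272625).

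Hilpda, core at 111 bases: caaccgcgagccGCGTGctttccgtgactc
Hilpda, core at 43 bases: gatggccagcggACGTGccccagggcgagc
Hilpda, core at 8 bases: cgagctcgtgcaggttcggtacGCGTGcgc
Bnip3: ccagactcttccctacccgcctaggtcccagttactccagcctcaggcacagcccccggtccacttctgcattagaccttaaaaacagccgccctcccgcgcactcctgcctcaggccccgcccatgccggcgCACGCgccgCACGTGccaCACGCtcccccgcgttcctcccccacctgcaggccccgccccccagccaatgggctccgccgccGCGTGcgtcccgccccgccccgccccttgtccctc
Egln1: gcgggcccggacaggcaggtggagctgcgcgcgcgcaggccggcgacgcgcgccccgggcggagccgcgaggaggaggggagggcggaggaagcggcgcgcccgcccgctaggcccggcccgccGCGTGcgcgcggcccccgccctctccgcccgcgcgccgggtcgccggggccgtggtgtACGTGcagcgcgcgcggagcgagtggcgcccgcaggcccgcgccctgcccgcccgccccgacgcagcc

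Bnip3 held 5 core matches, among them a CACGTG that reads as a core on both strands and so counts as 2 overlapping matches. Egln1 held 2. Of the other members in the table, Ankrd37 held 4 matches, Hif1a 3, Egln3 1 and Vhl 0. In total 6 of 7 members with an entry had a core before at least 1 start, and by window 6 of their 8 held a core. Over the 32851 promoter windows of the table, 38.6% held at least 1 core and 16.7% at least 2, so such a match is common and marks no bound site by itself.

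The response genes Hilpda, Bnip3 and Bnip3l rose and the oxygen sensor gene Egln1 fell when Fat4 was knocked down. The lipid droplet gene Hilpda rose by 35.6%, and the mitophagy receptor genes Bnip3 and Bnip3l rose by 29.1% and 19.5%. Egln1 fell, with a change of -17.5%. Thus 4 of 10 genes passed the test, 3 higher and 1 lower. Among all 13372 tested genes 17.4% were called, 8.94% higher and 8.44% lower in the knockdown (quasi-likelihood test of edgeR at an adjusted p under 0.05, by Benjamini-Hochberg). The groups did not overlap for 5 of the 10 genes, against 34.9% of all tested genes. The median log2 fold change of the 10 genes was 0.21, and that of all tested genes was -0.01. With only genes of at least 10 CPM in 3 libraries, Epas1, Egln3 and Ankrd37 dropped out. The median of the 7 genes left was then 0.03, against -0.01 over all genes so kept. Scaling by library size alone gave 32.9% of all calls as higher, against 51.4% with TMM, and called 2 of the 10 genes higher and 1 lower. No change among the 10 reached 1.5-fold. Only the Hilpda call held under all 19 alternatives, against 17 for Egln1, 12 for Bnip3 and 9 for Bnip3l.

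**Figure D1:**
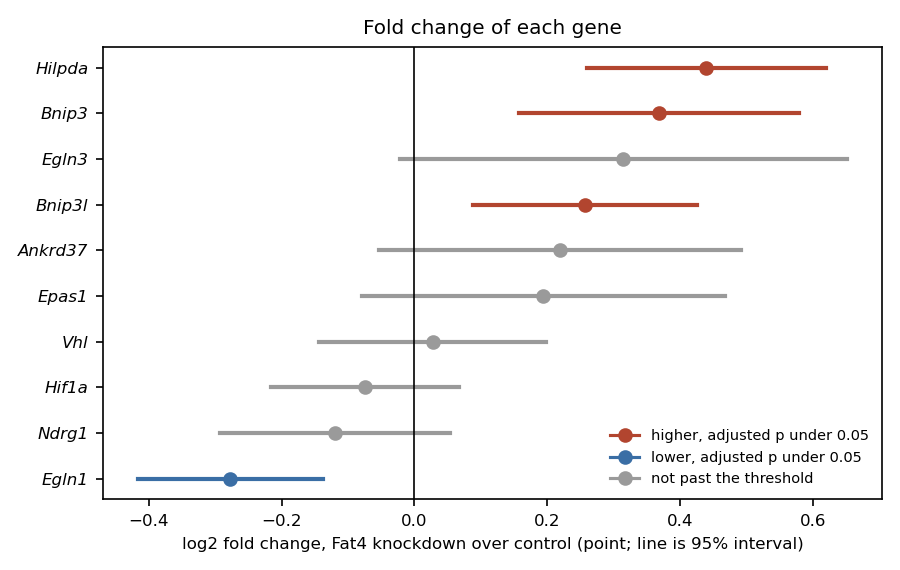
Log2 fold change of each gene, Fat4 knockdown over control (n = 3 each), on the horizontal axis, with points for edgeR estimates and lines for 95% intervals. The intervals of Hilpda, Bnip3 and Bnip3l lie above 0, that of Egln1 lies below 0, and the other 6 include 0.

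Egln1 encodes the main prolyl hydroxylase that senses oxygen (ENSMUSG00000031987, GRCm39 chromosome 8, exons from 125635326 to 125676063). It had 52.5, 55.6 and 54.6 CPM in knockdown libraries, against 62.1, 64.6 and 70.2 CPM in control libraries. All 3 knockdown libraries lay below all 3 control libraries. The log2 fold change was -0.28 (SE 0.07, edgeR adjusted p = 0.00926, range over the alternatives 0.00154 to 0.0674). Without control replicate 3 the log2 fold change was -0.23 and the call was lost (edgeR adjusted p = 0.0515), and without control replicate 1 it was -0.31.

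Egln3 encodes a hydroxylase of the same family and is itself a known HIF target. Its level was 6.16, 6.76 and 6.99 CPM in knockdown libraries and 3.98, 6.36 and 5.53 CPM in control libraries. Control replicate 1 was the lowest library, control replicate 2 lay within the knockdown range, and the log2 fold change of 0.31 did not pass the test (95% interval -0.02 to 0.65, edgeR adjusted p = 0.189). Without control replicate 1 its log2 fold change was 0.16. Egln2, the remaining family member, was named after its values were seen. It averaged 38.1 ± 2.21 CPM in knockdown and 44.3 ± 1.33 CPM in control libraries (SD, n = 3 each, log2 fold change -0.22, edgeR adjusted p = 0.0414). The Egln2 call was lost without any 1 library other than control replicate 1, by upper-quartile scaling, by DESeq2 and after correction for GC content and length (log2 fold change -0.09, edgeR adjusted p = 0.438, range over the alternatives 0.014 to 0.471). Without 1 of those 5 libraries its log2 fold change was -0.17 to -0.26.

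Vhl encodes the substrate receptor of the ubiquitin ligase that removes hydroxylated HIF alpha. It had 27.0, 26.8 and 28.0 CPM in knockdown libraries and 26.1, 24.9 and 29.1 CPM in control libraries. The knockdown values lay inside the control range, and the log2 fold change was 0.03 (95% interval -0.14 to 0.20, edgeR adjusted p = 0.857). It was -0.02 without control replicate 2 and 0.10 without control replicate 3.

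The genes for the alpha subunits did not pass the test. Hif1a, which encodes the broadly expressed subunit, had 54.4, 56.8 and 57.3 CPM in knockdown libraries and 54.8, 63.1 and 59.3 CPM in control libraries. Control replicates 2 and 3 were highest and control replicate 1 lay within the knockdown range (log2 fold change -0.07, 95% interval -0.22 to 0.07, edgeR adjusted p = 0.491). The Hif1a log2 fold change was -0.12 without control replicate 1 and -0.02 without control replicate 2. Epas1 encodes an alpha subunit known for its role in endothelium. It had 6.96, 7.15 and 6.53 CPM in knockdown libraries, against 5.63, 5.83 and 6.51 CPM in control libraries. Its groups did not overlap, but knockdown replicate 3 and control replicate 3 nearly met, and the log2 fold change of 0.19 did not pass (95% interval -0.08 to 0.47, edgeR adjusted p = 0.354). The interval for Hif1a bounds any transcript change more tightly than that for Epas1, which was counted 58 to 80 times a library.

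**Figure D2:**
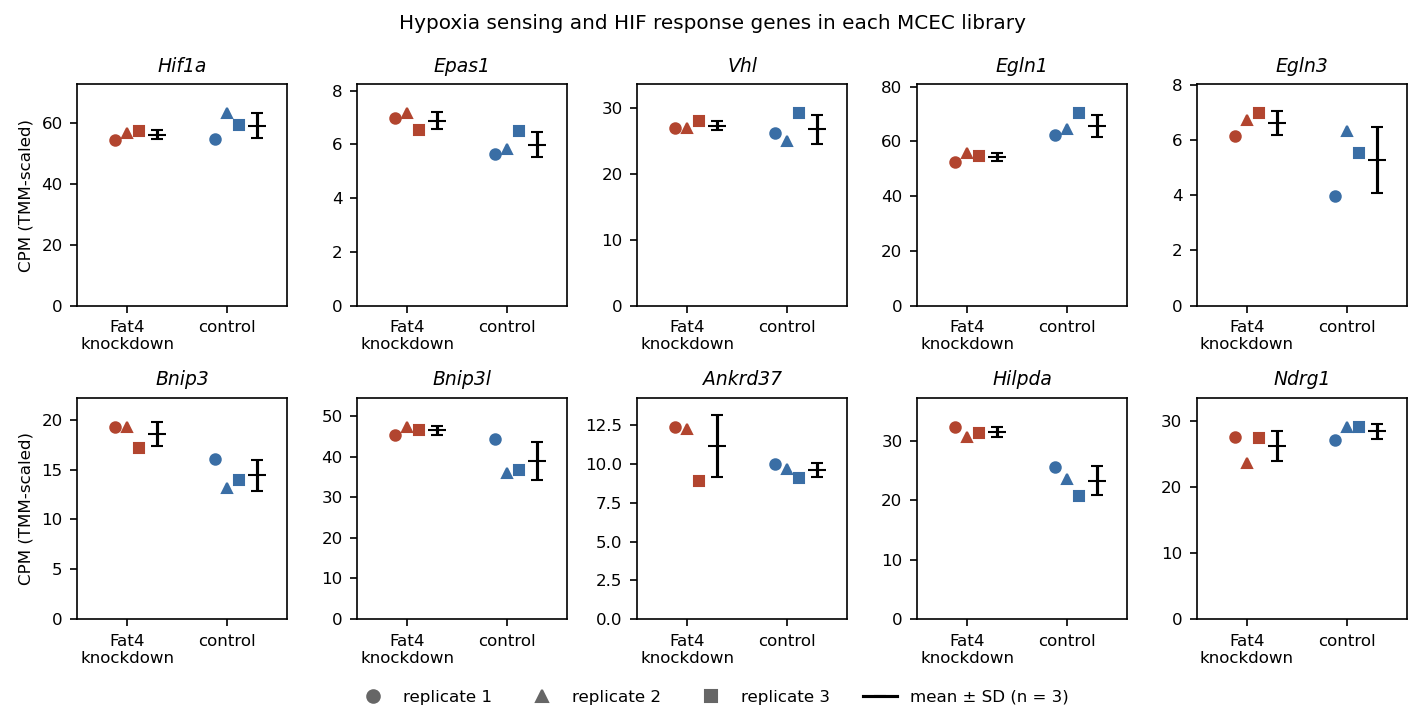
Expression of each gene in CPM with TMM-scaled library sizes on the vertical axis, by group, with a marker for each replicate and the mean ± SD (n = 3) beside it. The 3 knockdown libraries lie above every control library for Hilpda, Bnip3, Bnip3l and Epas1 and below every control library for Egln1, and the groups overlap for the other 5 genes.

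Hilpda encodes a small lipid droplet protein that inhibits the triglyceride lipase encoded by Pnpla2 (ENSMUSG00000043421, GRCm39 chromosome 6, exons from 29272487 to 29275445). It had 32.3, 30.7 and 31.2 CPM in knockdown libraries, against 25.5, 23.5 and 20.7 CPM in control libraries. Every knockdown library was above every control library, and the knockdown libraries were the closer to each other. The log2 fold change was 0.44 (SE 0.08, edgeR adjusted p = 0.00292). The call held under all 19 alternatives, with log2 fold changes from 0.34 to 0.51 and adjusted p-values up to 0.0217.

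Bnip3 encodes an outer mitochondrial membrane protein that recruits the autophagy machinery (ENSMUSG00000078566, GRCm39 chromosome 7, exons from 138492565 to 138511248). It had 19.3, 19.3 and 17.1 CPM in knockdown libraries, against 16.1, 13.2 and 14.0 CPM in control libraries. Knockdown replicate 3 and control replicate 1 were the nearest values across the groups. The log2 fold change was 0.37 (SE 0.10, edgeR adjusted p = 0.0183, range over the alternatives 0.00352 to 0.125). The call was lost by DESeq2 (adjusted p = 0.0546), after correction for GC content and length (log2 fold change 0.25, edgeR adjusted p = 0.0967), and without knockdown replicate 1 (0.34), knockdown replicate 2 (0.34), control replicate 2 (0.31) or control replicate 3 (0.35 on the log2 scale). Without control replicate 1 the log2 fold change was 0.45.

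Bnip3l encodes NIX, the paralogous mitophagy receptor best known for clearing mitochondria from maturing red cells (ENSMUSG00000022051, GRCm39 chromosome 14, exons from 67222688 to 67246326). It had 45.3, 47.3 and 46.6 CPM in knockdown libraries, against 44.3, 35.9 and 36.6 CPM in control libraries. Control replicate 1 lay just under the knockdown range, apart from the other control libraries. The log2 fold change was 0.26 (SE 0.08, edgeR adjusted p = 0.0367), and it was 0.36 without control replicate 1 (edgeR adjusted p = 0.00109, the lowest of the alternatives). The call was lost without any 1 of the other 5 libraries, with log2 fold changes of 0.20 to 0.27, under library-size scaling (0.20), by DESeq2 (0.26) and after correction for GC content and length (0.18), and adjusted p-values reached 0.187.

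Ankrd37 and Ndrg1 are widely used as hypoxia-induced transcripts, and neither passed the test. Ankrd37, which encodes an ankyrin repeat protein, had 12.4, 12.2 and 8.89 CPM in knockdown libraries and 10.002, 9.71 and 9.12 CPM in control libraries. Knockdown replicate 3 was the lowest of all 6 libraries while the other 2 knockdown libraries were highest (log2 fold change 0.22, 95% interval -0.05 to 0.49, edgeR adjusted p = 0.265). Without knockdown replicate 3 its log2 fold change was 0.36, and without knockdown replicate 1 it was 0.13. Ndrg1, which encodes a stress-induced protein phosphorylated by SGK1, had 27.5, 23.5 and 27.3 CPM in knockdown libraries and 27.1, 29.1 and 29.0 CPM in control libraries. Its groups overlapped at control replicate 1, and its log2 fold change of -0.12 did not pass (95% interval -0.29 to 0.05, edgeR adjusted p = 0.35). Without knockdown replicate 2 it was -0.05.

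How reads were assigned bears on some of these values. All 6 Bnip3 values, 4 of the Bnip3l values and 2 of the Egln1 values were not whole numbers (tolerance 1e-06), as deposited. The processed pseudogene Bnip3l-ps held 2.68 counts over all libraries, against 2818 for Bnip3l. The sources used here do not give the strand setting of the counting. Ankrd37 shares 57 exon bases with Ufsp2 (2810 counts over all libraries, against 687 for Ankrd37) and 349 with Lrp2bp (6 counts), both on the opposite strand, and reads there cannot be told apart without strand. Hif1a, Bnip3, Ndrg1 and Vhl overlap noncoding genes on the opposite strand that held at most 6 counts each.

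Levels were compared between genes as counts per kilobase of exon length, scaled to a total of 1000000 in each library (TPM). By mean, Hilpda was the most abundant of the 10 transcripts, although Egln1 was higher in control replicate 3 (36.9, against 35.4 for Hilpda). It had 47.0 ± 1.80 in knockdown and 38.1 ± 2.38 in control libraries (SD, n = 3 each). Egln1 followed with 24.9 ± 1.03 in knockdown and 33.2 ± 3.55 in control libraries, and Bnip3l with 19.9 ± 0.727 in knockdown and 18.2 ± 1.45 in control libraries. Hif1a (15.7 ± 0.776 in knockdown, 18.2 ± 1.87 in control libraries) and Vhl (15.03 ± 0.795 in knockdown, 16.2 ± 1.89 in control libraries) had overlapping ranges in both groups. Within each of the 6 libraries Hif1a was the higher of these 2, by little in some. Hif1a also overlapped Bnip3l in control libraries. Bnip3 (13.5 ± 0.566 in knockdown, 11.5 ± 0.866 in control libraries) and Ankrd37 (11.95 ± 1.83 in knockdown, 11.3 ± 0.166 in control libraries) were not separated, and Ankrd37 was the higher in control replicate 2. Ndrg1, Egln3 and Epas1 were lowest, with Epas1 at 2.03 ± 0.0379 in knockdown and 1.95 ± 0.234 in control libraries. Hif1a was thus the more abundant of the 2 alpha subunit transcripts, and Egln1 was more abundant than Egln3, in all 6 libraries. The order by mean was the same in both groups. These values carry no TMM scaling, so they compare genes and not groups. On this scale the groups of Bnip3l overlapped (19.2 in knockdown replicate 1, 19.8 in control replicate 1), as did those of Epas1. Ndrg1 was at most 7.05 in knockdown and at least 7.10 in control libraries. Vhl averaged lower in knockdown, although its edgeR log2 fold change was 0.03. The sources used here do not say whether reads cover whole transcripts or mainly one end, and a bias toward one end would distort such levels.

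**Figure D3:**
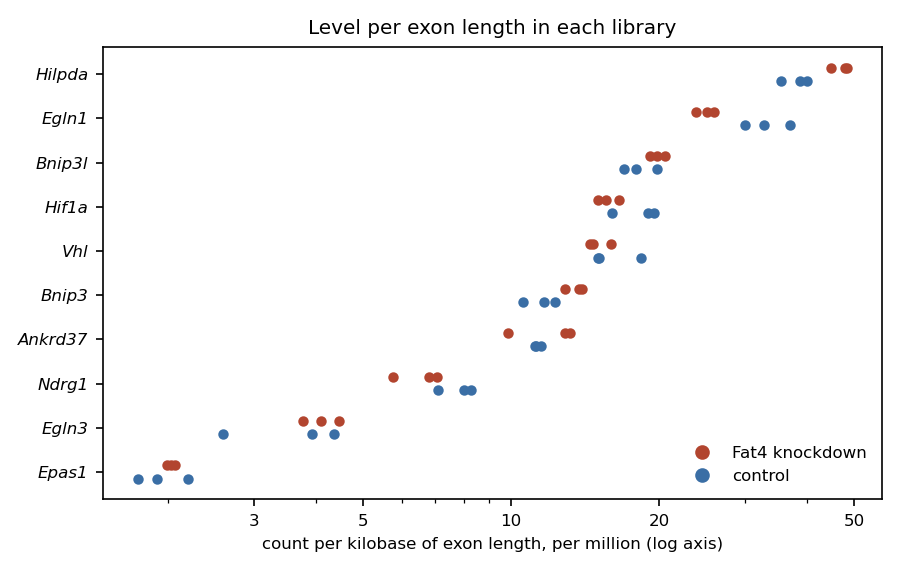
Count per kilobase of exon length, scaled to the same total in each library, on a logarithmic horizontal axis, with 1 point per library. Hilpda is highest at 44.9 to 48.2 in knockdown and 35.4 to 40.0 in control libraries, overlapping Egln1 in the control libraries, and Epas1 is lowest.

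Other genes of HIF control, of known HIF responses, and related to Hilpda or Ndrg1 were read from the same fit. They came from 7 lists that share no gene with the 10. Of 108 listed genes 91 could be tested, and 25 were called, 9 higher and 16 lower. That is 27.5% of those tested, against 17.4% of all genes, and their median log2 fold change was -0.05. With only genes of at least 10 CPM in 3 libraries, 23 of 74 listed genes were called, against 2174 of all 8743. GC and length correction left 14 calls of 91, 6 higher and 8 lower, against 1644 of all 13372 genes. DESeq2 left 16, against 1535 of all genes, and fits without 1 library left 14 to 26, against 1029 to 3077.

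Among 16 tested HIF regulators, Eloc and Cul2 rose and Usp20, Arnt2 and Egln2 fell (median log2 fold change -0.03). That is 31.2% called, against 17.4% of all tested genes. Eloc, which encodes elongin C, an adaptor of the VHL ligase, averaged 391 ± 28.9 CPM in knockdown and 306 ± 22.9 CPM in control libraries (SD, n = 3 each). Its log2 fold change was 0.35 (edgeR adjusted p = 0.00295), and it passed under all 19 alternatives. Cul2, the scaffold of that ligase, rose by 0.22 on the log2 scale. Rbx1, its RING subunit, had a log2 fold change of 0.18 and did not pass (edgeR adjusted p = 0.0617, range over the alternatives 0.0069 to 0.246), nor did Elob, the other elongin adaptor gene, named after its values were seen (0.11, edgeR adjusted p = 0.282). Usp20, which encodes a deubiquitinase acting on HIF alpha, fell (-0.46), and so did Arnt2 (-0.57). The Cul2 call was lost without any 1 library other than control replicate 1 (log2 fold change 0.20 to 0.24), and the Arnt2 call without any 1 knockdown library or control replicate 2 (-0.61 to -0.37). DESeq2 lost the calls of Cul2 (adjusted p-values over its alternatives up to 0.249) and Arnt2 (up to 0.186) and left 1 higher and 1 lower in the list. After GC and length correction only the Eloc call of this list remained. Rack1, the most abundant gene of the list, did not pass (log2 fold change 0.10).

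Of the tested genes of glucose uptake, glycolysis or lactate handling, 16.7% were called, against 17.4% of all tested genes. No gene of this list was called higher, against 8.94% of all tested genes. Of 18 tested by edgeR, 0 rose and 3 fell (median log2 fold change -0.09): Gpi1 (-0.22), Pfkp (-0.24) and Pkm (-0.19), which encode enzymes of upper and lower glycolysis. Ldha, which encodes a lactate dehydrogenase subunit, averaged 942 ± 25.7 CPM in knockdown and 917 ± 54.0 CPM in control libraries (SD, n = 3 each), and neither it (log2 fold change 0.04) nor Eno1 (-0.09) passed. At an unadjusted p under 0.05, 0 were higher, and DESeq2 and limma-voom each called 0 higher. GC and length correction left 0 calls in this list, DESeq2 lost the Pfkp call, and upper-quartile scaling lost those of Pfkp and Pkm. The Gpi1 call was lost without knockdown replicate 2, control replicate 2 or control replicate 3 (log2 fold change -0.21 to -0.24), and the Pfkp and Pkm calls without any 1 library other than knockdown replicate 3 (-0.27 to -0.18 and -0.22 to -0.14). Pfkp shares 748 exon bases with Pitrm1 on the opposite strand.

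Of 12 tested genes of mitochondria and mitophagy, 4 rose and 3 fell by edgeR (median log2 fold change 0.01). That is 58.3% called, against 17.4% of all tested genes. DESeq2 called 3 of the list higher (Fam162a, Higd1a and Map1lc3b) and 0 lower. Fam162a and Higd1a, both known hypoxia-induced mitochondrial protein genes, rose by 0.31 and 0.28 on the log2 scale, and so did the autophagosome gene Map1lc3b (0.23) and the mitophagy receptor gene Fundc1 (0.28). Mxi1, which encodes a MYC antagonist induced by HIF, fell (-0.36), as did the autophagosome gene Gabarapl1 (-0.21) and the mitochondrial protease gene Lonp1 (-0.23). Fundc1 and Lonp1 were named after their values were seen. Fkbp8, a mitophagy receptor gene whose exons overlap a more abundant gene on the opposite strand, did not pass (-0.02). GC and length correction left 2 higher and 2 lower and ended the calls of Fam162a, Fundc1 and Lonp1. The Higd1a call was lost without knockdown replicate 2 or control replicate 2 (log2 fold change 0.25 and 0.28) and the Mxi1 call without replicate 3 of either group (-0.30 and -0.32). Without control replicate 2 or control replicate 3 the calls of Map1lc3b (0.24 and 0.17), Fundc1 (0.27 and 0.21), Gabarapl1 (-0.20 and -0.20) and Lonp1 (-0.22 and -0.23) were lost, as they were without knockdown replicates 1 or 3 for Map1lc3b (0.20 and 0.23), 2 or 3 for Fundc1 (0.28 and 0.23), and 1 or 2 for Gabarapl1 (-0.22 and -0.14) and Lonp1 (-0.22 and -0.19).

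Vascular and matrix targets were lower where they changed. Of 13 tested by edgeR, 0 rose and 4 fell (30.8% called, against 17.4% of all tested genes, median log2 fold change -0.15). At an unadjusted p under 0.05, 0 were higher, and DESeq2 and limma-voom each called 0 higher. Vegfa, the main vessel growth factor gene and a classical HIF target, averaged 36.3 ± 1.33 CPM in knockdown and 48.3 ± 2.20 CPM in control libraries (SD, n = 3 each, log2 fold change -0.41, edgeR adjusted p = 0.00115). P4ha1, which encodes a collagen prolyl hydroxylase, fell by 0.34 on the log2 scale, the VEGF receptor gene Flt1 by 0.59 and the growth factor gene Pdgfb by 0.38. The calls of Vegfa and P4ha1 held under all 19 alternatives, and that of Pdgfb was lost without knockdown replicate 2 (log2 fold change -0.32) or control replicate 3 (-0.36), by DESeq2 and after GC and length correction. Lox, which encodes a collagen cross-linking enzyme, did not pass (log2 fold change -0.12). The mesothelial marker sum and Col1a1 were also lower in these knockdown libraries, as given above, and their part in these values was not tested.

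Stress, transcription and chromatin targets gave 2 rises and 1 fall among 17 tested (median log2 fold change -0.02). That is 17.6% called, against 17.4% of all tested genes. The metallothionein gene Mt1 averaged 306 ± 8.06 CPM in knockdown and 194 ± 9.02 CPM in control libraries (SD, n = 3 each, log2 fold change 0.66), and the transferrin receptor gene Tfrc rose by 0.30 on the log2 scale. Kdm6b, which encodes a histone H3K27 demethylase, fell (-0.49). The calls of all 3 held under all 19 alternatives. Ier3 (0.05) and Jmjd6 (0.07) did not pass.

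The lipid droplet list held a riser beside Hilpda. Of 8 tested, 1 rose and 1 fell (25% called, against 17.4% of all tested genes, median log2 fold change -0.09). Plin2, which encodes a coat protein of lipid droplets, had 101.7, 97.5 and 99.4 CPM in knockdown libraries, against 67.0, 69.5 and 78.9 CPM in control libraries. Every knockdown library was above every control library (log2 fold change 0.47, SE 0.07, edgeR adjusted p = 0.000453). Mgll, which encodes monoglyceride lipase, had 12.6, 11.4 and 13.5 CPM in knockdown libraries, against 19.5, 16.2 and 20.2 CPM in control libraries, without overlap (log2 fold change -0.57, SE 0.11, edgeR adjusted p = 0.00252). Both calls held under all 19 alternatives. Pnpla2 (log2 fold change -0.14) and the droplet coat gene Plin3 (-0.05) did not pass.

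Of the Ndrg family, the Ndrg1 kinases and the Myc genes, 7 were tested and Mycn was the 1 called. That is 14.3%, against 17.4% of all tested genes. Mycn, whose product represses Ndrg1 in other cells, averaged 17.9 ± 1.95 CPM in knockdown and 25.1 ± 1.35 CPM in control libraries (SD, n = 3 each). Its log2 fold change was -0.49 (edgeR adjusted p = 0.00262), and it passed under all 19 alternatives. Sgk1 (0.16) and Myc (0.07) did not pass.

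**Figure D4:**
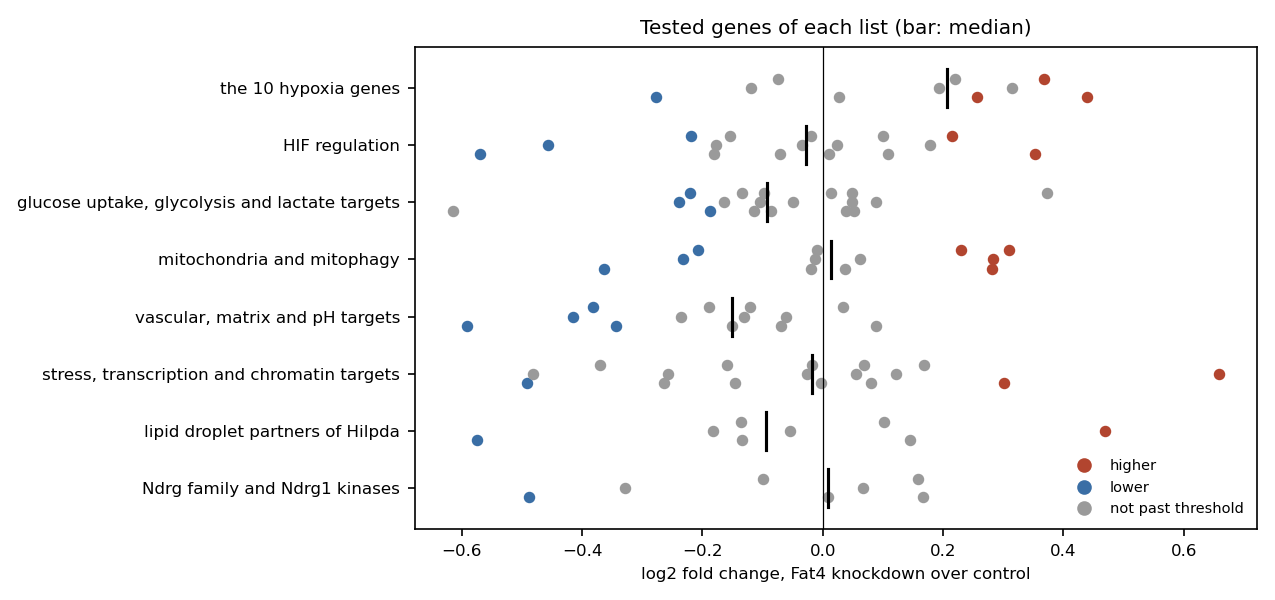
Log2 fold change, Fat4 knockdown over control, of each tested gene on the horizontal axis, by list, with a bar at each list's median. The 10 hypoxia genes have a median of 0.21, the medians of the other lists lie between -0.15 and 0.01, and genes called higher and genes called lower both appear in 5 of the 8 rows.

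The alternatives separated the 4 calls. Hilpda was called in 19 of 19, Egln1 in 17, Bnip3 in 12 and Bnip3l in 9, and none of these genes changed sign. The other 6 genes were called in 0 alternatives, and of them Vhl changed sign in 2. On simulated counts, the workflow called 36 of 50 genes changed 1.3-fold and 15 of 50 changed 1.2-fold, sizes near those of Bnip3 and Bnip3l. The simulation gave every gene the same spread of 6.31% and had 155 calls, against 2324 in these data. Its rates therefore do not give the share of such changes that the test finds in these libraries.

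**Figure D5:**
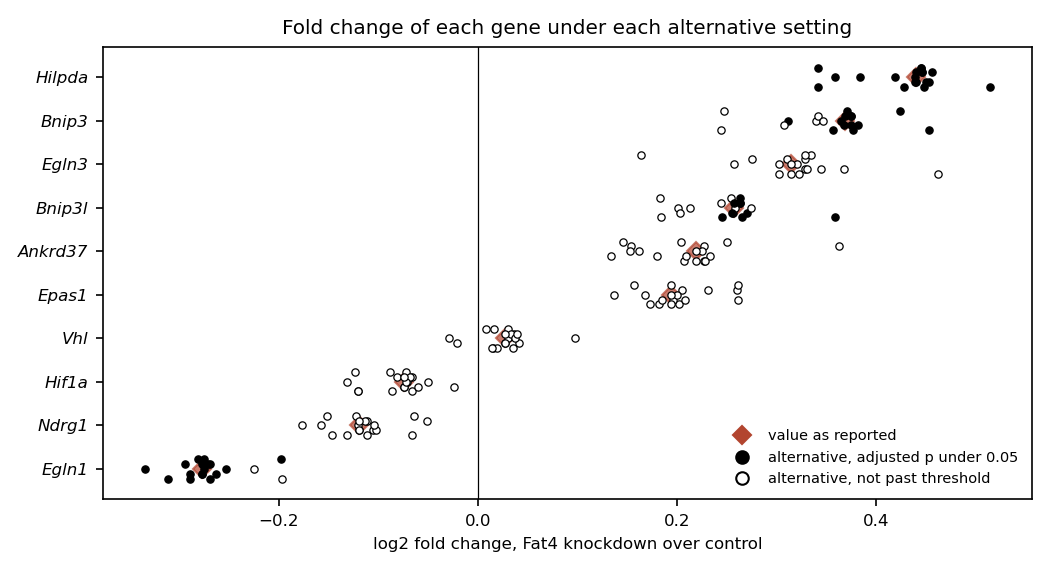
Log2 fold change of each gene, Fat4 knockdown over control, under each alternative (circles, filled where the adjusted p is under 0.05), with the reported value as a diamond. All circles of Hilpda are filled and lie between 0.34 and 0.51, and those of Bnip3 and Bnip3l are filled in 12 and 9 of 19.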

How the data were processed

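Total RNA of 6 MCEC samples was converted to tagmented cDNA libraries, per the labels' protocols. The build GRCm39 and the aligner STAR 2.7.11 are listed in the submitters' processing notes, beside SAMtools 1.22.1, fastp 0.24.0, MultiQC 1.32 and FastQC 0.12.1. Neither the read counter nor its strand setting nor the annotation release is stated there. The deposited table holds estimated counts per gene, of which 29.0% of nonzero values are not whole, and CPM, which the authors made as count over library total, per the file headers and values.

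Counts were rounded, 92 spike-in rows left out, low genes removed by filterByExpr and libraries scaled by TMM. Knockdown was tested against control with the robust quasi-likelihood test of edgeR 4.0.16 (R 4.3.3), with no blocking term, and p-values were adjusted by Benjamini-Hochberg over 13372 genes (threshold 0.05). Means ± SD of CPM are on TMM-scaled totals, SE is the absolute log2 fold change over the square root of F, and the biological coefficient of variation was 6.31%. Within groups, every pair of libraries differed beyond sampling noise (chi-square per degree of freedom 2.43 to 9.11), so all 6 were kept. Named genes outside the 10 were up to 4 called genes of each list with the smallest adjusted p and its 2 most abundant others, unless stated; 1 gene so named is not reported here. The members and lists were chosen with earlier results of these data known, so they are no independent support. Alternatives were other scalings, DESeq2 1.42.0, voom of limma 3.58.1, filters (none, or 10 CPM in 3 libraries), a replicate block, leaving out mitochondrial and ribosomal protein genes, rounding down, each library left out, and GC and length trends (mgcv 1.9.3, GENCODE GRCm38 transcripts matched by gene identifier for 95.6% of tested genes) used as offsets. DESeq2 gave no adjusted p for 2334 tested genes, Fat4 among them, and these were left as missing. The robust option was chosen after the fit without it had been seen. That fit, an alternative added after seeing the data, called 2242 genes and the same 4 of the 10. The workflow was tested on simulated counts over 13234 genes and called 36 of 50 genes changed 1.3-fold, while 4 of its 155 calls were false. The precision of a count is its counting error plus this spread. Figures used matplotlib 3.10.9.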

Additional observations from a re-analysis of the deposited data

How the results depend on the processing

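Over all genes, 2324 were called, with 1535 by DESeq2, 1376 after GC and length correction with a replicate block, and 1029 to 3077 without 1 library. Of the 10 members 4 were called, with 2 by DESeq2, 2 after GC and length correction, 1 (Hilpda) when that correction went with the block, and 1 to 4 without 1 library, the 1 being without control replicate 3. Of the 91 tested genes of the other lists 25 were called, with 16 by DESeq2 and 14 after GC and length correction. With the block added 13 were called, and without 1 library 14 to 26. The cause of these losses was not tested, beyond fewer samples in the fits without 1 library. The replicate block alone gave 2001 genes, 3 members (without Bnip3l) and 20 other genes, without Cul2, Egln2, Pfkp, Gabarapl1, Fundc1 and Lonp1 among those named. Same-numbered libraries did not deviate together (correlations -0.21, -0.05 and -0.05), so no pairing by number was seen. So few libraries cannot exclude a pairing. Signs reversed in genes that never passed: Vhl at -0.0295, Ldha at -0.0194 and Ier3 at -0.00295 under library-size scaling, and Eno1 at 0.0349, Fkbp8 at 0.155 and Ier3 at -0.00383 after GC and length correction (Eno1 0.0350 and Fkbp8 0.158 with the block). Without 1 library the log2 fold changes ran from -0.0212 to 0.0970 for Vhl, -0.0772 to 0.0398 for Fkbp8, -0.0117 to 0.105 for Ier3 and -0.00823 to 0.127 for Myc. The order of the 10 genes per length stayed the same without rescaling. The lowest counts, of Epas1 and Egln3 (41 to 80 a library), gave the widest intervals.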

Other observations

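Several transcripts often read as hypoxia markers were too scarce to test in either group. Car9, which encodes a carbonic anhydrase, had 9, 10 and 7 counts in knockdown and 5, 7 and 9 counts in control libraries. Angptl4, a lipase inhibitor gene, had 9, 4 and 7 counts in knockdown and 4, 6 and 1 counts in control libraries. The vasodilator gene Adm had 2, 1 and 1 counts in knockdown and 2, 3 and 3 counts in control libraries. Hif3a, the gene for a further HIF alpha subunit, had no count in any library, which allows 0.253 to 0.291 CPM (3 counts, counting error only).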
